A study of Mus musculus with 800 samples.

Results

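Nuclei that carried a reporter driven by the DLX2.0 enhancer were set against nuclei that carried the same reporter driven by the hI56i enhancer. All nuclei titled with DLX2.0-H2B-SYFP2 (40) and all titled with hI56i-H2B-SYFP2 (40) were taken, 80 of the 800 labelled nuclei of the series, and were matched to the deposited count table by library name. A nucleus needed counts in at least 500 genes, which left 39 DLX2.0 and 40 hI56i nuclei. DLX2.0 nucleus 15 was the 1 left out, with 484 counts in 69 genes.

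The Dlx genes encode homeodomain transcription factors that specify GABAergic neurons of the forebrain and lie as neighbouring pairs in the genome. hI56i is a human enhancer from the stretch between DLX5 and DLX6, known for driving expression in forebrain GABAergic interneurons. DLX2.0 was built from concatenated copies of the core of that enhancer, so the change in structure between the vectors is the repeated core against the single full-length enhancer. Cortical GABAergic interneurons use GABA as their transmitter and are commonly divided by Pvalb, Sst, Vip and Lamp5 expression, while the projection neurons of the striatum are also GABAergic but use a different set of signalling genes.

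Both groups came from C57Bl/6J mice given an AAV with the PHP.eB capsid, which crosses the blood-brain barrier in mice, under the treatment labels AiP13968 PHP.eB (DLX2.0) and AiP14059 PHP.eB (hI56i). The reporter H2B-SYFP2 is a yellow fluorescent protein fused to a histone, so it marks nuclei. According to the design text, young adult mice received 5e11 vector genomes each and nuclei were sorted 3 to 4 weeks later for SMART-Seq v4 libraries of a stated depth of about 0.5 M read pairs. Every nucleus was sorted for YFP, so the shares below describe sorted nuclei, not the tissue. The labels give the anterior lateral motor cortex (ALM) as the source of every nucleus, and the design text also names striatum and visual cortex among the sorted regions. No label names an animal. Each vector was therefore treated as 1 sample with no replicate, no test between the vectors was possible, and no p-value is given for any difference between them. The 95% intervals below (exact Clopper-Pearson for shares, exact Poisson for sums of counts) cover counting error only. For a class with no nucleus, the largest share given is the limit of 3 counts of the total, not an exact bound. Reads amplified by PCR without molecular identifiers are not independent molecules.

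Depth was close between the vectors, with a median of 238312 counts per DLX2.0 nucleus (484 to 473776) and 249205 per hI56i nucleus (39282 to 489430). The library names put DLX2.0 nuclei in the library series S40323 (8) and S40324 (31 that passed) and hI56i nuclei in S40324 (24) and S40326 (16). Results are therefore given for all nuclei and for S40324 alone, the library series that both vectors share.

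Nuclei were clustered together with those of the other 18 vectors (790 nuclei, 8 clusters) and each cluster was named from lists of class markers. The ALM label and the marker genes went against each other in part of the hI56i nuclei. Of the 40 hI56i nuclei, 13 fell in the cluster with markers of striatal projection neurons, all of them in series S40326, and 12 of the 13 had counts of Rgs9 and 13 of 13 of Ppp1r1b. In nuclei of DLX2.0, Pde1b, Drd2 and Adora2a had no count at all. Among the 16 hI56i nuclei of S40326, 81.3% were of this class, and among the 24 of S40324 there was none. Whether these nuclei came from another dissected region or animal cannot be told apart from the vector's own labelling, since library series and class coincide. A pair of hI56i nuclei of the class also stood apart from the rest. Nucleus 39 had counts in 508 genes, with oligodendrocyte markers summing to 62586 CPM (counts per 1000000) beside 7150 for striatal markers, and nucleus 40 had 18667 beside 1896.

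DLX2.0 nuclei were mostly GABAergic-like and hI56i nuclei were mostly oligodendrocyte-like or striatal projection neuron-like. Of the 39 DLX2.0 nuclei, 24 were GABAergic-like (61.5%, 95% interval 44.6 to 76.6), 9 astrocyte-like (23.1%, 11.1 to 39.3), 5 oligodendrocyte-like (12.8%, 4.30 to 27.4) and 1 glutamatergic-like (2.56%). No DLX2.0 nucleus was striatal projection neuron-like, which allows a share of up to 7.69%. Of the 40 hI56i nuclei, 17 were oligodendrocyte-like (42.5%, 27 to 59.1), 13 striatal projection neuron-like (32.5%, 18.6 to 49.1), 5 glutamatergic-like (12.5%, 4.19 to 26.8), 4 GABAergic-like (10%, 2.79 to 23.7) and 1 was in an unnamed cluster. No hI56i nucleus was astrocyte-like, which allows a share of up to 7.5%. These intervals take nuclei as independent, which the runs of classes described below go against, so they cannot be used to compare the vectors.

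**Figure D1:**
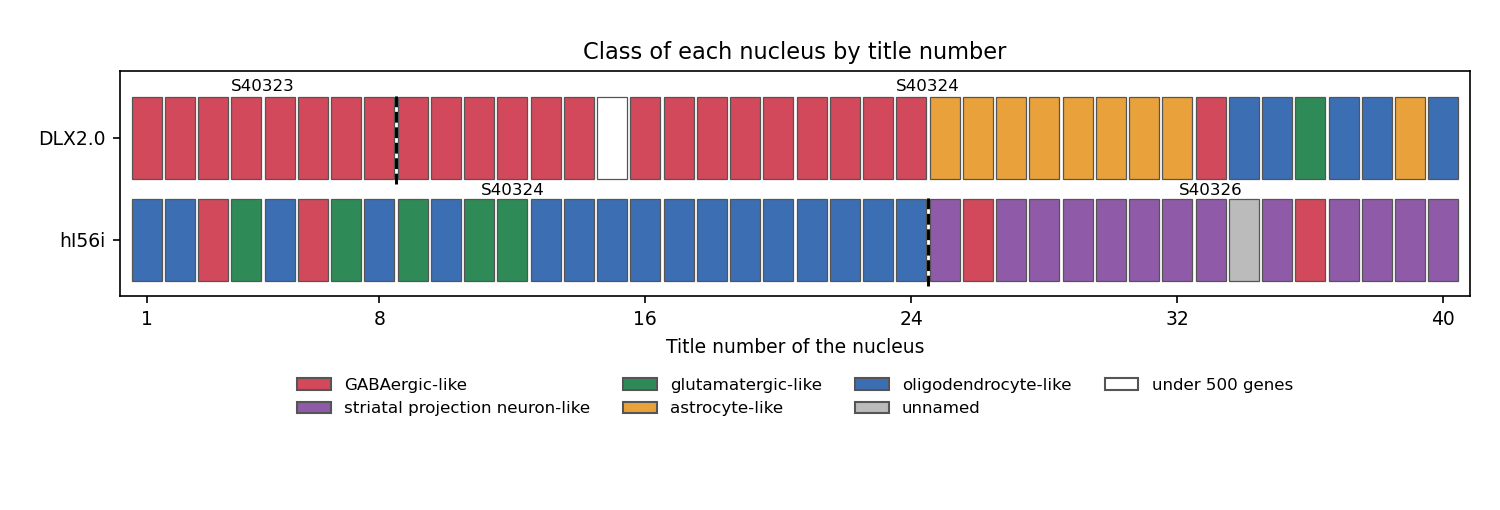
Class of each nucleus by the number in its title (1 to 40, horizontal) for DLX2.0 and hI56i, with dashed lines between library series and a white tile for the DLX2.0 nucleus under 500 genes. The first 24 title numbers of DLX2.0 hold 23 GABAergic-like nuclei, and title numbers 25 to 40 of hI56i hold the 13 striatal projection neuron-like nuclei.

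Within each vector the classes came in runs of title numbers. DLX2.0 nuclei 1 to 8, 9 to 16 and 17 to 24 that passed the gene minimum were all GABAergic-like, nuclei 25 to 32 were all astrocyte-like, and nuclei 33 to 40 held 5 oligodendrocyte-like nuclei with 1 each of the GABAergic-like, glutamatergic-like and astrocyte-like classes. In hI56i, nuclei 17 to 24 were all oligodendrocyte-like, and nuclei 25 to 40 held the striatal projection neuron-like class. Of pairs of DLX2.0 nuclei within the same run of 8 title numbers, 86.5% (115 of 133) shared a class, beside 34% (207 of 608) of pairs from different runs. The matching shares for hI56i were 60.7% (85 of 140) and 22.7% (145 of 640). The labels do not say what the numbers stand for, and the part of sorting order or of animals in these runs was not tested.

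In series S40324 alone, 16 of 31 DLX2.0 nuclei were GABAergic-like (51.6%, 33.1 to 69.8), beside 2 of 24 hI56i nuclei (8.33%, 1.03 to 27). Oligodendrocyte-like nuclei made up 16.1% of DLX2.0 and 70.8% of hI56i (48.9 to 87.4) there, and glutamatergic-like nuclei 5 of 24 hI56i nuclei (20.8%). Astrocyte-like nuclei made up 29% of DLX2.0 and none of hI56i, which allows up to 12.5%. All 8 DLX2.0 nuclei of S40323 were GABAergic-like. The difference in GABAergic-like share was also present in the shared library series, while the striatal projection neuron-like nuclei were outside it. The difference there rested on DLX2.0 nuclei 9 to 16 (7 of 7 GABAergic-like) and 17 to 24 (8 of 8). DLX2.0 nuclei 25 to 32 (0 of 8) and 33 to 40 (1 of 8) of the same series did not show it, beside 2 of 24 in hI56i.

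**Figure D2:**
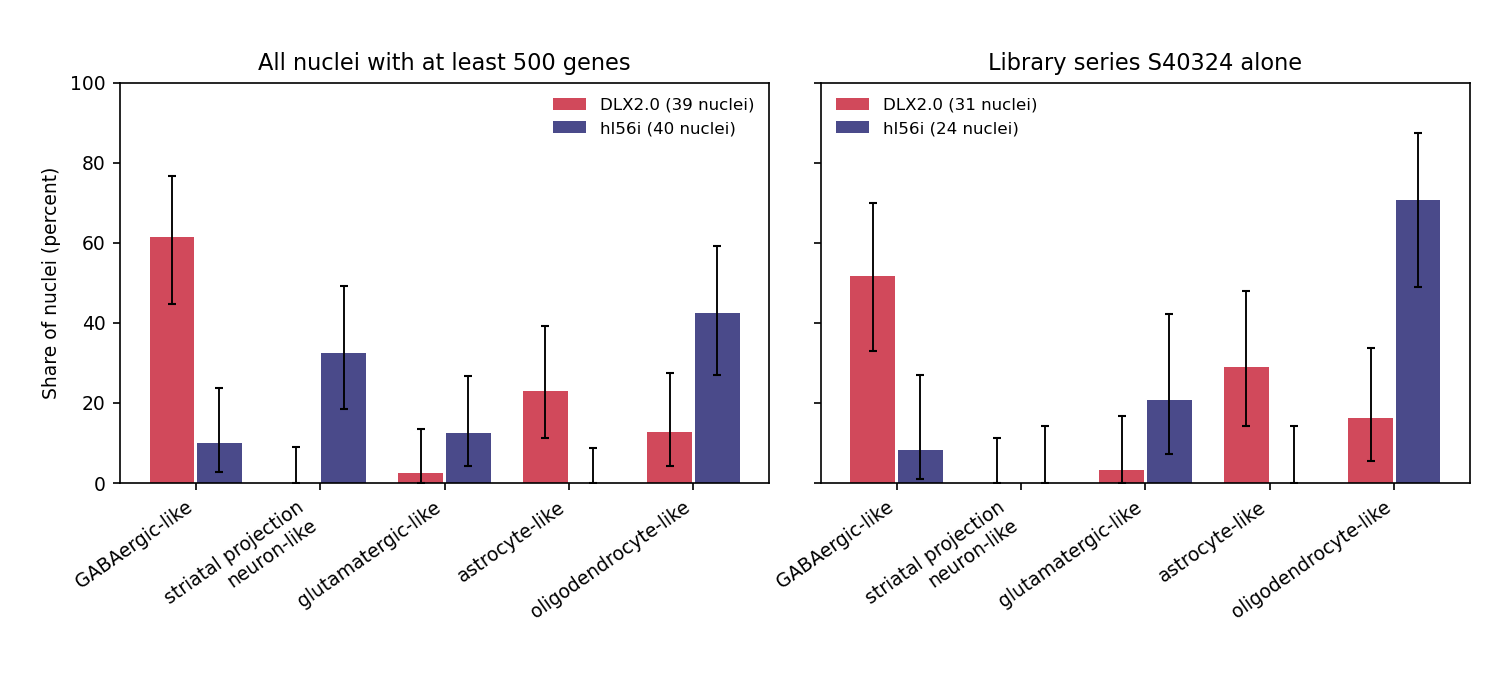
Share of nuclei in each class in percent (vertical) for DLX2.0 and hI56i, over all nuclei (39 and 40) and in library series S40324 (31 and 24), with exact binomial 95% intervals as error bars. GABAergic-like nuclei make up 61.5% of DLX2.0 and 10% of hI56i over all nuclei, and 51.6% and 8.33% in S40324.

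Among all 20 vectors, DLX2.0 ranked 4th by its GABAergic-like share and hI56i 17th, with a range over the other 18 vectors (711 nuclei) of 2.50% to 72.5% and a median of 30%. hI56i ranked 3rd by its oligodendrocyte-like share, where the other vectors had a median of 2.53% (0 to 80%). The astrocyte-like share of DLX2.0 lay above the median of 3.75% over the other vectors (0 to 77.5%). The naming of clusters decided the GABAergic-like share: under an earlier rule, which took the class of highest marker level over all classes and also asked for a class marker among a cluster's 10 leading genes, the share was 12.8% in DLX2.0 and 2.50% in hI56i. Of the GABAergic-like clusters, 2 were left unnamed by that rule. One held 130 nuclei, 3 of DLX2.0 and 1 of hI56i, and the other held 99 nuclei, 16 of DLX2.0 and 2 of hI56i, with Crhbp, Lama4, Grin3a and Kcnip1 among its leading genes.

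**Figure D3:**
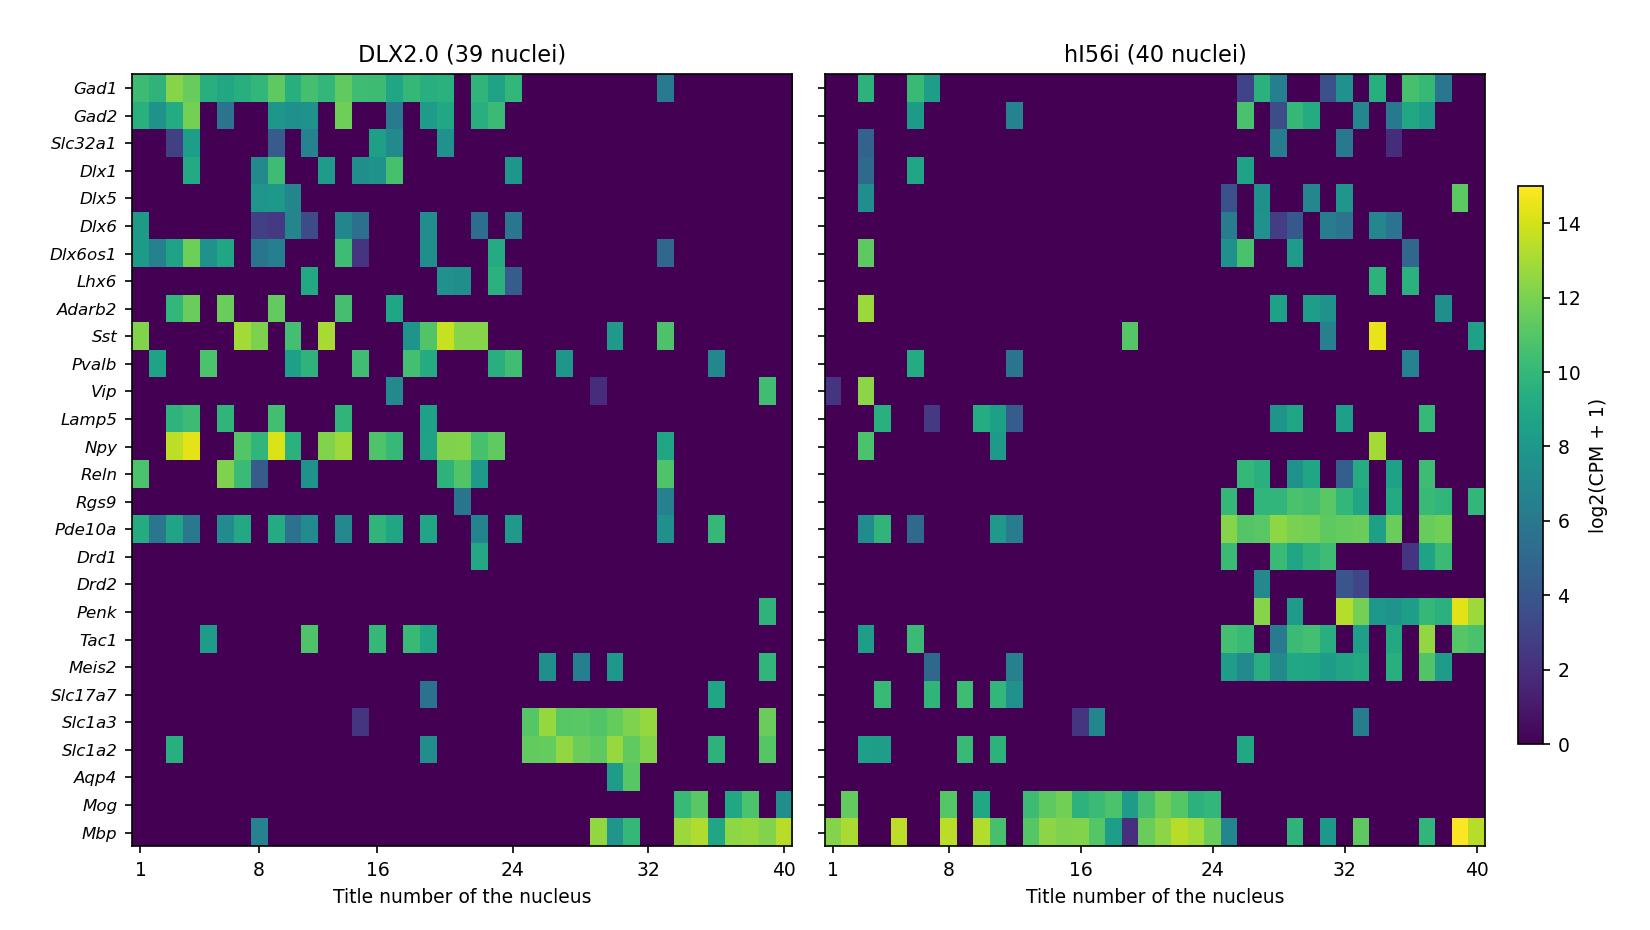
Level of 28 marker and Dlx genes as log2(CPM + 1) (colour) in every nucleus, ordered by title number within DLX2.0 and hI56i. Gad1 has counts in 23 DLX2.0 nuclei, mostly at low title numbers, and the striatal genes Rgs9 and Penk have counts mostly in hI56i nuclei at high title numbers.

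To compare gene levels over all nuclei of a vector, counts were summed and expressed as CPM, so each level reflects both how many nuclei of a class were sorted and how much RNA each gave, which cannot be told apart in a sum. SMART-Seq counts grow with transcript length, so levels are compared between vectors and not between genes. A gene was called where the sums differed at least 4-fold, with and without its top nucleus, with at least 20 counts and with counts in at least 5 nuclei of 1 vector. Of 7815 genes compared, 631 were called higher in DLX2.0 (8.07%) and 433 higher in hI56i (5.54%), 13.6% in all. The median log2 ratio of DLX2.0 to hI56i over all compared genes was 0.13.

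Genes of GABAergic interneurons stood higher in DLX2.0, with 3 of 11 compared GABAergic markers (of 12) called, all higher in DLX2.0, and a median log2 ratio of 1.49. Gad1, which makes GABA from glutamate (chromosome 2, 70553072 to 70602014 in mm10), had counts in 23 of 39 DLX2.0 nuclei (lowest 0, median 516, highest 4998 CPM) and in 12 of 40 hI56i nuclei. Its summed level was 636 CPM in DLX2.0 (620.8 to 652 by counting error) and 185 CPM in hI56i (177 to 194), a difference under the 4-fold limit. Gad2, the second such enzyme, stood at 268 CPM beside 95.8 CPM, in 14 and 10 nuclei. Slc32a1, the vesicular GABA transporter, was called at 9.61-fold, with 29.9 CPM in 7 DLX2.0 nuclei and 3.11 CPM in 4 hI56i nuclei. Slc6a11, a GABA transporter of astrocytes, had 31.4 CPM in 7 DLX2.0 nuclei and no count in hI56i, and was the other of 2 genes called among 7 compared of the GABA synthesis, transport and breakdown list.

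None of the 4 Dlx family genes with enough counts, of 7 in the family, was called, and their median log2 ratio was 0.65. Dlx1 (chromosome 2, 71528113 to 71533981) stood at 104 CPM in 8 DLX2.0 nuclei and 26.1 CPM in 3 hI56i nuclei, at 3.98-fold and so below the limit. Dlx2, its neighbour on the same chromosome, had no count in any nucleus of either vector. Dlx5 (chromosome 6, 6877805 to 6882085) was at 15.4 CPM in 3 DLX2.0 nuclei and 49.5 CPM in 6 hI56i nuclei, 5 of them striatal projection neuron-like. Nucleus 39 gave 348 of the 478 hI56i counts, and without it the level was 13.7 CPM, below that of DLX2.0. Dlx6 (chromosome 6, 6863334 to 6868568) was at 18 CPM in 10 DLX2.0 nuclei and 13.7 CPM in 8 hI56i nuclei. Dlx6os1, a long noncoding RNA from the opposite strand (6820189 to 6871592), overlaps all of Dlx6, and reads from the pair cannot be told apart in libraries without strand. It had 159 CPM in 13 DLX2.0 nuclei and 85.0 CPM in 5 hI56i nuclei, and in S40324 the order turned, with 52.5 beside 81.0 CPM. The summed Dlx1 level of DLX2.0 was the highest of the 20 vectors.

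Of the transcription factors that act in the interneuron lineage, 3 of 9 compared (of 14) were called, all higher in DLX2.0, and the list's median log2 ratio was 1.85 beside 0.13 over all genes. Maf, a factor of interneurons from the medial ganglionic eminence, was 8.74-fold higher in DLX2.0, with 273 CPM in 21 nuclei beside 31.3 CPM in 4. Sox6, which acts in Sst and Pvalb interneurons, was 19.2-fold higher, with 117 CPM in 16 nuclei beside 6.11 CPM in 2. Npas1 stood at 36.8 CPM in 6 DLX2.0 nuclei and at 0.829 CPM in 1 hI56i nucleus. Lhx6, which specifies the same lineage, went the other way in the sums, at 24.1 CPM in 5 nuclei and 47.5 CPM in 2, and was not called. Both hI56i nuclei with Lhx6 were in S40326, so that in S40324 it stood at 28.6 CPM in DLX2.0 and had no count in hI56i.

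Subclass genes of interneurons were called for 3 of 10 compared (of 20), all higher in DLX2.0. Npy, a neuropeptide of several interneuron types, was 6.35-fold higher, with 1860 CPM in 16 DLX2.0 nuclei and 293 CPM in 3 hI56i nuclei. Pvalb, a calcium buffer of fast-spiking cells, was 6.98-fold higher, with 198 CPM in 11 nuclei beside 28.3 CPM in 3. Sst, the somatostatin precursor, had counts in 12 DLX2.0 nuclei (1183 CPM) and in 4 hI56i nuclei (828 CPM), where a single nucleus reached 22985 CPM. Vip was the reverse, at 43.5 CPM in 3 nuclei and 110.5 CPM in 2, but 1 nucleus gave nearly all of each sum, the astrocyte-like nucleus 39 of DLX2.0 (406 of 435 counts) and nucleus 3 of hI56i (1065 of 1066). Lamp5 was at 124 CPM in 6 nuclei and 89.6 CPM in 9. Among ion channels of fast-spiking cells and interneurons, 5 of 13 compared (of 15) were called, all higher in DLX2.0. Kcnc1 and Kcnc2, subunits of the Kv3 potassium channels that allow fast firing, were 10.9-fold and 24-fold higher, in 18 and 13 DLX2.0 nuclei beside 6 and 2 hI56i nuclei. Kcna1 was not called and stood higher in hI56i (119 CPM in 7 nuclei beside 366 CPM in 16).

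Of 9 compared GABA-A receptor subunits none was called, with a median log2 ratio of -0.34. Of 15 ionotropic glutamate receptor genes 4 were called higher in DLX2.0 and none higher in hI56i. Grik1, a kainate receptor subunit found in interneurons, was 10.8-fold higher, with 248 CPM in 20 nuclei beside 23 CPM in 2. Grin3a, an NMDA receptor subunit, stood at 30.9 CPM beside 1.55 CPM. Gria2, an AMPA receptor subunit of most neurons, was at 1702 CPM and 1423 CPM. No synaptic vesicle gene was called among 12 compared.

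**Figure D4:**
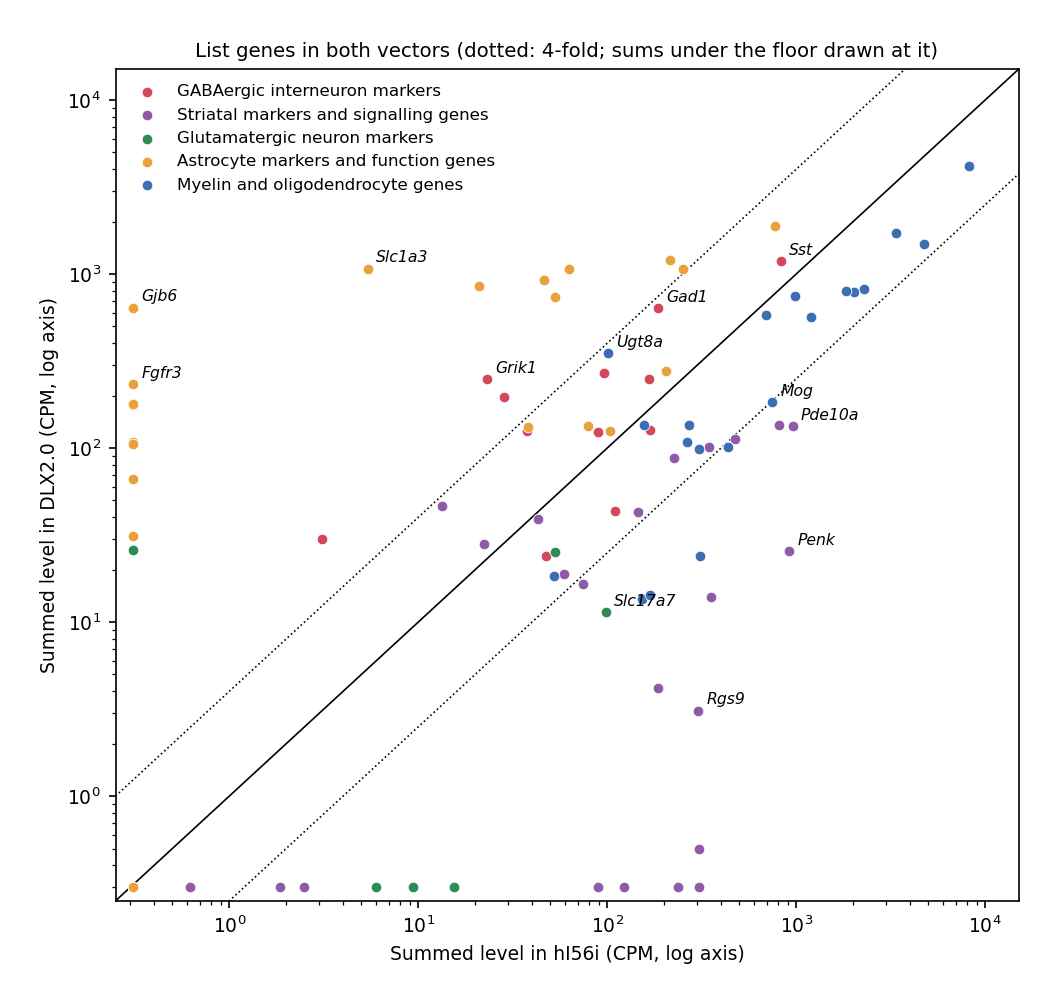
Summed level of each gene in CPM over hI56i nuclei (horizontal) and DLX2.0 nuclei (vertical) on log axes, with sums under 3 counts drawn at that floor, a solid line of equality and dotted lines at 4-fold. Genes of 5 groups are coloured: astrocyte genes such as Gjb6 (642 CPM beside 0) lie above the band, and striatal genes such as Rgs9 (3.10 beside 303 CPM) below it.

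Striatal genes were higher in hI56i. Of the striatal projection neuron markers 5 of 6 compared (of 8) were called higher in hI56i, with a median log2 ratio of -5.06, and 7 of 13 compared striatal signalling genes (of 16) were as well. Ppp1r1b, the dopamine-regulated phosphatase inhibitor DARPP-32, had 308 CPM in 14 hI56i nuclei and 0.500 CPM in 1 DLX2.0 nucleus. Pde1b, a phosphodiesterase, had 237 CPM in 14 hI56i nuclei and no count in DLX2.0, at least 792-fold higher against a floor of 3 counts over the vector. By the same floor Rasd2, a small GTPase of the striatum, was at least 410-fold higher. Penk and Drd1, the enkephalin precursor and the D1 dopamine receptor, were 35.9-fold and 11.4-fold higher. Adcy5, the main striatal adenylyl cyclase, was 25.4-fold higher, with 356 CPM in 15 nuclei beside 14 CPM in 3.

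Among striatal lineage transcription factors, 3 of 6 compared (of 12) were called higher in hI56i. Foxp1 stood at 221 CPM in 21 hI56i nuclei and 48.6 CPM in 13 DLX2.0 nuclei, and Foxp2 at 70.5 CPM in 12 nuclei and at no count in DLX2.0. Ebf1, the factor of the direct pathway, had 29.7 CPM beside 0.100 CPM. Outside the lists, Pcp4, a calmodulin regulator, had 577 CPM in 18 hI56i nuclei beside 0.400 CPM (4 counts) in 1 DLX2.0 nucleus. Mcam, an adhesion molecule, had 268 CPM in 11 hI56i nuclei and no count in DLX2.0, and 10 of these 11 nuclei were in S40324. Gprin3 and Ankub1 had 241 and 159 CPM in 14 and 6 hI56i nuclei and no count in DLX2.0. All 6 nuclei with Ankub1 were in S40324.

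The striatal genes did not hold in the shared library series. In S40324, 1 striatal projection neuron marker had enough counts and was not called. Pde10a, a phosphodiesterase enriched in the striatum, was 7.16-fold higher in hI56i over all nuclei (958 CPM in 18 nuclei beside 134 CPM in 17) and stood at 125 CPM in DLX2.0 and 53.1 CPM in hI56i in S40324. Pde1b had no count in either vector there. Glutamatergic markers were called higher in hI56i for 2 of 3 compared genes over all nuclei and for 2 of 2 in S40324. Slc17a7, which loads glutamate into vesicles in cortical excitatory neurons, was 8.63-fold higher in hI56i, with 98.3 CPM in 5 nuclei beside 11.4 CPM in 2.

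Astrocyte genes were the most one-sided group in DLX2.0. Of the astrocyte markers 6 of 6 compared (of 9) were called higher in DLX2.0, with a median log2 ratio of 8.78, and 9 of 15 astrocyte function genes were as well. Slc1a3 and Slc1a2, the glial glutamate transporters, were 199-fold and 17.2-fold higher, in 10 and 12 DLX2.0 nuclei beside 3 and 5 hI56i nuclei. Gjb6 (connexin 30; chromosome 14, 57123303 to 57133611) had 642 CPM in 9 DLX2.0 nuclei and no count in hI56i, at least 2063-fold higher, and Gja1 (connexin 43) was at least 569-fold higher by the same floor. F3, the tissue factor of coagulation, and Slco1c1, a thyroid hormone transporter, were at least 2378-fold and at least 1731-fold higher. Slc7a10, an amino acid transporter of astrocytes, was at least 693-fold higher. Crhbp, a corticotropin-releasing hormone binding protein of Sst interneurons, was at least 794-fold higher, with 247 CPM in 8 DLX2.0 nuclei. Clu and Apoe, the secreted lipid carriers, stood at 1210 and 1896 CPM in DLX2.0 and at 214 and 770 CPM in hI56i, of which Clu was called. Glul, glutamine synthetase, had counts in 17 nuclei of each vector and was not called (278 and 205 CPM).

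Oligodendrocyte markers stood higher in hI56i with none of 9 called, at a median log2 ratio of -1.21. Mbp, myelin basic protein, was at 3354 CPM in 25 hI56i nuclei and 1711 CPM in 11 DLX2.0 nuclei. Mog was 4.06-fold higher in hI56i but 3.28-fold without its top nucleus, and was called in S40324 with 1190 CPM beside 219 CPM. Of 19 compared myelin and oligodendrocyte genes (of 20), 3 were called higher in hI56i: Cldn11, the claudin of myelin (12.9-fold), and the transcription factors Myrf (11.2-fold) and Sox10 (11.6-fold). Ugt8a, which makes galactosylceramide, went the other way without a call, at 352 CPM in 4 DLX2.0 nuclei and 100.4 CPM in 5 hI56i nuclei. Of 10 compared cholesterol synthesis genes (of 13), 3 were called higher in DLX2.0, among them Cyp51 (6.54-fold). The microglial gene C1qb had counts in 2 hI56i nuclei and in no DLX2.0 nucleus, and no precursor, vascular or cholinergic marker had enough counts to compare.

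In S40324 alone, 1046 of 5684 compared genes were called higher in DLX2.0 (18.4%) and 185 higher in hI56i (3.25%), 21.7% in all, and the median log2 ratio over all genes was 0.51. GABAergic markers were called for 3 of 10 (median log2 ratio 2.27), interneuron lineage factors for 3 of 6 and fast-spiking channels for 5 of 12, all higher in DLX2.0. Astrocyte markers were again called for 6 of 6. Gad1 was 4.07-fold higher in DLX2.0 and 3.46-fold without its top nucleus, at 453 and 111 CPM. Gad2 stood at 171 and 22.3 CPM, and Slc32a1 at 25.2 and 0.825 CPM. Sst was called in S40324, at 1027 and 115 CPM, which it was not over all nuclei. Dlx6 had 16 CPM in DLX2.0 and no count in hI56i, and was called, as the 1 of 3 compared Dlx genes. Oligodendrocyte markers were called higher in hI56i for 2 of 9, Mog and Opalin, and myelin genes for 5 of 19.

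The 24 GABAergic-like DLX2.0 nuclei were then compared with GABAergic-like nuclei of the 15 other vectors that held at least 5 of them (222 nuclei), by the summed level in the class. These ranges describe other enhancers and mix subclasses in other proportions, and the list genes other than class markers had been kept out of the clustering. All 12 GABAergic markers had counts in the class, and the 6 glutamatergic markers other than Slc17a7 had none. Gad1 had counts in 23 of the 24 nuclei (lowest 0, median 936, highest 4998 CPM), with a class level of 1233 CPM above the range of 390 to 1224. Gad1 had no count in the 9 astrocyte-like nuclei of DLX2.0. Gad2 had counts in 14 of the 24 nuclei. The exception for Gad1 was nucleus 21, which had no Gad2 either but had Npy at 4558, Sst at 4973 and Reln at 1915 CPM.

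Above the other vectors' range in this class lay 2 of 12 GABAergic markers, 2 of 14 interneuron lineage factors, 3 of 20 subclass genes and 0 of 15 fast-spiking channels, beside 7.41% of all 11422 genes. Npy was at 3605 CPM (123 to 2556 in the others), with counts in 16 of 24 nuclei and a highest nucleus of 21792 CPM. Maf was at 530 CPM (148 to 447), with counts in 21 nuclei. Dlx1 was at 202 CPM (19.6 to 144), with counts in 8 nuclei, and Lamp5 at 241 CPM (0 to 215), with counts in 6. Grin2d, an NMDA receptor subunit of interneurons, was at 147 CPM (9.55 to 114). Sst (2278 CPM), Pvalb (367 CPM), Lhx6 (46.7 CPM), Adarb2 (484 CPM) and Grik1 (462 CPM) were inside it, as were all measured fast-spiking channels and synaptic vesicle genes. Over all genes 2.16% lay below the other vectors. Of the 18 genes above the range among the lists and the called genes named by rule, 6 stayed above it without the nucleus that held most of their counts, among them Npy (2627 CPM) and Maf (467 CPM). Gad1 (1111 CPM), Dlx1 (142 CPM), Lamp5 (186 CPM) and Grin2d (83.9 CPM) were then inside it.

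Subclass genes were then read nucleus by nucleus within these 24. Adarb2, which marks interneurons of the caudal ganglionic eminence, had counts in 6 nuclei and Lhx6 in 5. No nucleus had both and 13 had neither. Among 228 GABAergic-like nuclei of the other vectors, 3 had both and 108 had neither. Whether low detection alone would leave no nucleus with both was not tested. The 5 nuclei of the Adarb2 cluster (titles 3, 4, 6, 9 and 13) had Adarb2 at 960, 3033, 3104, 2652 and 1502 CPM and Lamp5 at 849, 1268, 916, 1427 and 895 CPM. Of these nuclei 4 held Npy at 7035 CPM or more, nucleus 6 had none, and Sst and Pvalb had no count in any of them. Sst was found in 11 nuclei and Pvalb in 9, with 3 nuclei holding both. Of the 11 nuclei with Sst 9 also had Npy and 7 had Reln, and all 16 nuclei with Npy had Maf. Vip had counts in 1 nucleus (132 CPM), which also held Adarb2.

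**Figure D5:**
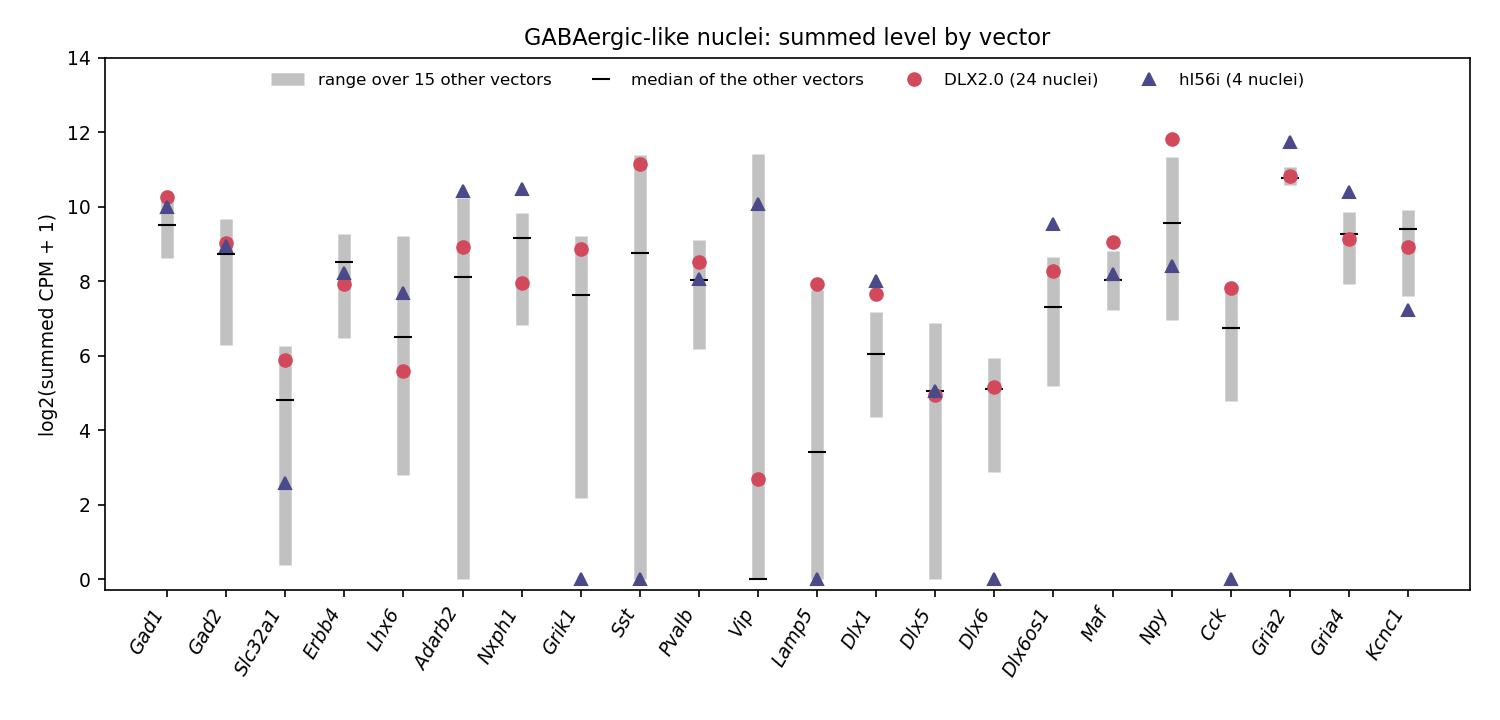
Level of interneuron genes in GABAergic-like nuclei as log2(summed CPM + 1) (vertical) for DLX2.0 (circles, 24 nuclei) and hI56i (triangles, 4 nuclei), with the range (grey bar) and median (dash) over 15 other vectors. Gad1, Npy, Maf and Dlx1 of DLX2.0 lie above the bars, and Sst of hI56i lies at 0.

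The 4 GABAergic-like hI56i nuclei (titles 3, 6, 26 and 36) were each different. Gad1 stood at 846, 1117, 6.98 and 1564 CPM and Gad2 at 0, 290, 1647 and 519 CPM, so each nucleus had at least 1 of the enzymes. Dlx1 stood at 35.9, 478, 398 and 0 CPM and Dlx6os1 at 2516, 0, 1675 and 30.5 CPM. Erbb4, the neuregulin receptor of interneurons, had counts in all 4, at 840, 171, 133 and 164 CPM. Nucleus 3 held Adarb2 (6995 CPM), Vip (5458 CPM) and Htr3a (359 CPM), genes of caudal interneurons, with Npy at 1737 CPM. Nuclei 6 and 36 held Nxph1 (2247 and 2037 CPM) and Pvalb (601 and 99.2 CPM), and nucleus 36 held Lhx6 at 774 CPM. Nucleus 26 had striatal markers summing to 2400 CPM beside 1786 CPM for GABAergic markers, with Pde10a at 1989 CPM. Sst, Grik1, Lamp5, Cck and Dlx6 had no count in any of the 4.

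As a class these nuclei had Gria2 at 3427 CPM, above the 1532 to 2121 of the other vectors, and Dlx6os1 at 744 CPM, above 35.3 to 400.0. Without the nucleus that held most of its counts, Dlx6os1 was no longer above (311 CPM). For Gria2 that nucleus was number 6, the lowest of the 4 in CPM, so the level rose to 3825 CPM. Leaving it out could not show whether Gria2 rested on a high nucleus. By nucleus Gria2 stood at 4991, 2820, 3921 and 2903 CPM in titles 3, 6, 26 and 36. Sox6 (2.0 CPM) lay below the range. Of 15 fast-spiking channels 10 lay below it, 3 above it and 2 inside it. These class levels rest on 4 nuclei, fewer than the 5 asked of each other vector. Over all genes 14.2% lay above and 14.3% below, beside 7.41% and 2.16% for the 24 DLX2.0 nuclei. Between the vectors within this class 2343 of 7383 compared genes were called higher in DLX2.0 (31.7%) and 49 higher in hI56i (0.664%), where the class held 24 nuclei of the former and 4 of the latter. Among the 854 genes with counts in at least 3 nuclei of both vectors, 12 were called higher in DLX2.0 and 38 higher in hI56i, with a median log2 ratio of -0.56. Both the call rule and that filter ask for 3 of 4 nuclei in hI56i but 3 of 24 in DLX2.0. With such unequal numbers of nuclei the direction of neither set of calls can be read. Sst (2278 CPM in 11 nuclei beside none in 4), Ptprd, a receptor phosphatase (923 CPM in 18 nuclei), and Dock4 (551 CPM in 12) had no count in hI56i. All of these met the minimum of 3 nuclei in DLX2.0 alone. Timm21 and Syt3 were at 1364 and 672 CPM in 3 hI56i nuclei and at 35.7 and 30.8 CPM in 5 and 6 DLX2.0 nuclei.

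The unnamed hI56i nucleus, number 34, lay in a cluster of 24 nuclei led by Nos1, Chodl and Sst. It held Sst at 22985, Npy at 7803, Nos1 at 3112, Chodl at 86.6, Lhx6 at 818 and Gad1 at 715 CPM. Nucleus 34 was in series S40326, where 13 of 16 hI56i nuclei were striatal projection neuron-like. Whether it was an interneuron of the cortex or of the striatum was not tested. With nucleus 34, 5 of 40 hI56i nuclei were in clusters with interneuron genes.

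The 13 striatal projection neuron-like hI56i nuclei had Ppp1r1b in all 13 (lowest 152, median 936, highest 2322 CPM). Adcy5, in 13 of 13, was at 1041 CPM, above the 298 to 955 of 11 other vectors (142 nuclei). Syndig1l (301 CPM; 65.9 to 280.2) and the retinoic acid receptor Rarb (228 CPM; 57.5 to 220.4) were also above, while Homer1 (151 CPM; 186 to 804) and Rasgrp2 (51.5 CPM; 105 to 303) were below. Without the top nucleus of each gene, Adcy5 (909 CPM), Syndig1l (192 CPM) and Rarb (135 CPM) were inside the range. Over all genes 11.5% lay above and 3.31% below the other vectors in this class. Drd1, the receptor of direct pathway neurons, had counts in 7 nuclei and Drd2, that of indirect pathway neurons, in 3, with none holding both and 3 holding neither. Of the 7 with Drd1, 6 had Tac1, and 3 of 3 with Drd2 had Penk. Dlx5 was at 155 CPM in 5 nuclei, above the 0 to 54.9 of the other vectors, but at 36 CPM and inside it without nucleus 39. Dlx6 was at 32.7 CPM in 7 nuclei, and Dlx1 had no count. Gad1 and Gad2 each had counts in 6 nuclei, at 167 and 145 CPM. Mbp was at 2975 CPM in 7 nuclei, above the 0 to 1264 of the other vectors, with nuclei 39 and 40 at 30413 and 10610 CPM, and was still above without nucleus 39 (1487 CPM). Nucleus 39 was also the highest for Dlx5, at 2356 CPM, and had no Rgs9. The part of myelin RNA from other cells in these levels was not tested.

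Glutamatergic-like nuclei numbered 5 in hI56i and 1 in DLX2.0. In the hI56i nuclei (titles 4, 7, 9, 11 and 12) Slc17a7 stood at 1150, 898, 1278, 976 and 192 CPM and Neurod6, a transcription factor of cortical excitatory neurons, at 72.9, 155, 0, 83.0 and 14.4 CPM. Sv2b, a synaptic vesicle protein, had counts in 3 of the 5. Slc17a6 had none, and Gad1 had 324 CPM in nucleus 7. The DLX2.0 nucleus, number 36, had Slc17a7 at 469 CPM, Sv2b at 1148 CPM, Pvalb at 128 CPM and striatal markers summing to 1056 CPM, mostly Pde10a (1034 CPM).

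The 9 astrocyte-like DLX2.0 nuclei (titles 25 to 32 and 39) were alike in their transporters. Slc1a3 ranged from 1965 to 6349 CPM with a median of 2841, and Slc1a2 from 2080 to 6687 with a median of 2803. Gjb6 ranged from 910 to 6067 CPM with a median of 1365, and its class level of 2173 CPM lay above the 642 to 1612 of 7 other vectors (98 nuclei). Fgfr3 was also above (788 CPM; 268 to 729), as was the nuclear noncoding RNA Malat1 (290443 CPM; 182140 to 237597), while Fgfr3 was inside without its top nucleus (618 CPM). Apoe (5521 CPM; 8069 to 29049), Clu (3468 CPM; 6048 to 19394) and Gja1 (599.7 CPM; 1214 to 2894) lay below. Aqp4, the astrocyte water channel, had counts in 2 of 9 nuclei, and Gad1 and the neuronal noncoding RNA Meg3 had none. Nucleus 39 held astrocyte markers at 7756 CPM together with oligodendrocyte markers at 5237 CPM and GABAergic markers at 1358 CPM. In nucleus 29 the oligodendrocyte markers, at 9736 CPM, stood above its astrocyte markers, at 6308 CPM. Over all genes 15.6% lay above and 5.60% below the other vectors.

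Oligodendrocyte-like nuclei were the 1 other class with several nuclei of both vectors, 5 of DLX2.0 and 17 of hI56i. In the DLX2.0 nuclei (titles 34, 35, 37, 38 and 40) Mbp stood at 6727, 9543, 5535, 6411 and 10696 CPM. In hI56i Mbp ranged from 3.00 to 11746 CPM with a median of 4723, so the nuclei of both vectors overlapped. Mog stood at 1152, 2268, 509.9, 1747 and 174 CPM in DLX2.0 and had counts in 15 of 17 hI56i nuclei (median 1236, highest 3600 CPM). Of 9 oligodendrocyte markers compared within the class none was called, with a median log2 ratio of 0.37.

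Individual myelin-related genes varied more from nucleus to nucleus. Ugt8a stood at 31.7, 0, 1534, 5109 and 3653 CPM in the DLX2.0 nuclei, a class level of 2110 CPM above the 0 to 897 of 8 other vectors (100 nuclei), and was at 219 CPM in 5 of 17 hI56i nuclei. Aspa, which breaks down N-acetylaspartate, stood at 2229, 683, 887, 0 and 11256 CPM in DLX2.0, so 1 nucleus gave most of its sum. Trf, the iron carrier transferrin, was at 8880 CPM in DLX2.0 and 10361 CPM in hI56i, both below the 10591 to 15438 of the others. Over all genes 12.7% lay above and 1.93% below the other vectors in DLX2.0, and 13.5% and 0.710% in hI56i. Of 1889 compared genes, 40 were called higher in DLX2.0 (2.12%) and 665 higher in hI56i (35.2%), where the class held 5 and 17 nuclei. Among 353 genes with counts in at least 3 nuclei of both vectors, 13 were called higher in DLX2.0 and 4 higher in hI56i. That filter asks for 3 of 5 nuclei in DLX2.0 but 3 of 17 in hI56i. With such unequal numbers of nuclei the direction of neither set of calls can be read. Hsp90ab1, a heat shock chaperone, had 1452 CPM in 9 of 17 hI56i nuclei and 1.20 CPM in 1 of 5 DLX2.0 nuclei. Gab1, a receptor adaptor, had 692 CPM in 6 of 17 hI56i nuclei and no count in the 5 of DLX2.0. Both genes met the minimum of 3 nuclei in hI56i alone.

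The number of genes detected was compared after thinning each nucleus to 130000 counts, which 38 nuclei of each vector reached. The median was 2003 genes in DLX2.0 and 1760 in hI56i. GABAergic-like nuclei had medians of 2283 genes in DLX2.0 and 2430.0 in hI56i, below the 3088 of the other vectors. Oligodendrocyte-like nuclei had 970.0 and 849 genes, and the astrocyte-like nuclei of DLX2.0 had 1478. The striatal projection neuron-like nuclei of hI56i had 2837.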

How the data were processed

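The authors deposited raw read counts per gene and nucleus (32285 genes, 2501 nuclei), of which 800 matched a labelled library name and 1701 were not used. Reads were aligned with STAR 2.7.2a to mm10, per the submitters' processing notes. Which annotation, counting rule and intron handling lay behind the counts was not given in the sources used here. Gene symbols (32158 of 32285 IDs) and positions were taken from GENCODE M21. The table holds no reporter sequence, so reporter RNA was not measured, and no enhancer sequence was at hand to print.

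Nuclei with at least 500 genes were scaled to CPM (counts per 1000000), and 2000 variable genes, 30 principal components and 15 neighbours were clustered with scanpy 1.11.5 (Leiden algorithm, leidenalg 0.10.2, resolution 1), with 180 list genes that are not class markers kept out. Classes with at least 3 markers found in 25% of a cluster's nuclei were candidates for its name. The candidate with the highest mean marker level, relative to the highest cluster, gave the "-like" name. A cluster stayed unnamed where another class had more markers among its 10 leading genes. This rule replaced another once the clusters had been seen, and the earlier rule is given as an alternative. Each library was 1 sorted nucleus by design, and doublets were not called. Nuclei with high markers of more than 1 class, such as hI56i nuclei 39 and 40 and DLX2.0 nucleus 29, stayed in their cluster's class. Whether these were doublets or held RNA from other cells was not tested.

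Counts were summed per vector or per vector and class, and a sum of 0 was compared at a floor of 3 counts. The call rule asks for 4-fold, 20 counts and 5 nuclei of 1 vector (3 within a class), and it was checked on simulated counts. Besides members of 25 gene lists (248 genes), the text may name the 12 called genes with the largest ratio in each direction (10 within a class), predicted genes skipped. The nuclei, gene lists and comparisons were chosen with earlier results of these data known. Alternatives were edgeR 4.0.16 TMM and RLE scaling in R 4.3.3, other filters, cluster settings, thinning and leaving out runs of nuclei. Python 3.11.15 with numpy 2.4.6, scipy 1.17.1 and pandas 2.3.3 was used otherwise. Some genes are not reported here.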

Additional observations from a re-analysis of the deposited data

How the results depend on the processing

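No paired analysis was possible because both vectors carry the title numbers 1 to 40 but no result comes from a test between them. The leading classes (GABAergic-like in DLX2.0, oligodendrocyte-like in hI56i) held in 2 of 2 vectors in most settings, but in 1 of 2 with a minimum of 1000 genes, where striatal projection neuron-like nuclei led hI56i, and in 1 with the earlier naming rule, where astrocyte-like nuclei led DLX2.0. The earlier naming rule, chosen as an alternative after seeing the data, gave a GABAergic-like share of 12.8% in DLX2.0 and 2.50% in hI56i; the settings other than this and leaving out nuclei gave 61.5% to 63.2% and 10% to 14.8%. Leaving out each run of 8 title numbers in turn gave 1 to 2 leading classes held. GABAergic-like nuclei led DLX2.0 each time. Without hI56i nuclei 9 to 16, and without 17 to 24, striatal projection neuron-like nuclei led hI56i. Without hI56i nuclei 1 to 8 they tied with oligodendrocyte-like nuclei. The GABAergic-like share was 51.6% to 77.4% in DLX2.0 and 6.25% to 12.5% in hI56i over these runs left out. Past 4-fold over all nuclei were 990 to 1234 genes (1064 with all), and 21 to 24 of 24 followed genes had the same direction.

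Without a filter on low counts 2369 genes were past 4-fold (1363 higher in DLX2.0, 1006 in hI56i) and 1338 within oligodendrocyte-like nuclei. Within that class the count was 181 with a minimum of 1000 genes, and 17 for genes in 3 nuclei of both vectors, an alternative chosen after seeing the data that gave 50 within GABAergic-like nuclei. TMM and RLE scaling moved the median log2 ratio of all genes by -0.13 and -0.14 and gave 587 and 584 genes higher in DLX2.0. In series S40324, 15 of 24 followed genes kept their direction. The log2 ratios that turned there were Dlx6os1 -0.63, Lhx6 5.85, Adarb2 -0.84, Rgs9 2.89, Pde10a 1.23, Drd1 5.02, Penk 5.94, Meis2 3.64 and Malat1 0.0074. Without DLX2.0 nuclei 1 to 8, Dlx6os1 (-0.70), Adarb2 (-0.40) and Malat1 (0.02) turned, without 9 to 16 Malat1 (0.059), and without 17 to 24 Sst (-0.29) and Malat1 (0.05). Lhx6 turned without hI56i nuclei 33 to 40 (5.92) and as a mean over nuclei (0.13). Over the runs left out, the ratios spanned -0.70 to 1.88 for Dlx6os1, -1.79 to 5.92 for Lhx6, -0.40 to 2.97 for Adarb2 and -0.29 to 3.63 for Sst. Lhx6 (also without hI56i nuclei 33 to 40), Rgs9, Drd1 and Penk had no count in hI56i in these settings and were set against the 3-count floor, and Drd1 and Penk each rest on 1 DLX2.0 nucleus. The cause of the other turns was not tested. Leaving out the nucleus with most counts of a gene, as done for class levels, was also chosen after seeing the data. Depth limits genes with few counts.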

Other observations

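Immediate early genes, which switch on with neuronal activity, were higher in hI56i for 3 of 6 compared genes (of 9), beside 5.54% of all compared genes, with a median log2 ratio of -2.60. Egr1 had 126 CPM in 11 hI56i nuclei and 8.0 CPM in 3 DLX2.0 nuclei, Junb 68.2 CPM beside 8.90 CPM, and Fos 47.3 CPM in 4 hI56i nuclei and no count in DLX2.0. In library series S40324 none of 2 compared genes of this list was called, Egr1 stood at 34.2 CPM in hI56i and 8.31 CPM in DLX2.0, and Fos had no count in either vector. Among nuclear long noncoding RNAs, 1 of 7 was called, Mirg, at 101 CPM in 18 DLX2.0 nuclei and 13.5 CPM in 8 hI56i nuclei. Malat1, the most abundant of them, stood at 205453 and 209935 CPM. Neat1, which builds nuclear paraspeckles, stood at 558 CPM in 10 DLX2.0 nuclei and 1799 CPM in 17 hI56i nuclei. The neuronal RNAs Meg3 (8793 and 5641 CPM) and Snhg11 (9328 and 5435 CPM) stood higher in DLX2.0 without a call.

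Xist had no count in any of the 79 nuclei, and at least 1 of 4 Y-linked genes had counts in 35 of 39 DLX2.0 and 32 of 40 hI56i nuclei. Among hI56i nuclei 17 to 24, all oligodendrocyte-like, 3 of 8 had such counts. This check was added after Eif2s3y had appeared among the genes of the oligodendrocyte-like comparison, at 602 CPM in hI56i and no count in DLX2.0. By library name, 8 index pairs were shared by DLX2.0 nuclei of different library series, and none was shared within hI56i or between the vectors. No nuclei held identical counts.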
